A study of Mus musculus with 18 samples.

Results

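G protein-coupled receptors that place B cells within the spleen and lymph node were followed in splenic B cells of MRL/lpr mice: 9 genes, chosen by symbol, of 23420 gene symbols listed in each of 18 RNA-seq libraries. They were Ccr7, Cxcr5, Cxcr4, Ccr6 and Cxcr3 (chemokine receptors), Cxcr7 (the older symbol of Ackr3, a receptor that removes chemokine instead of signalling through G proteins), Gpr183 (also called EBI2, a receptor for oxysterols), and S1pr1 and S1pr4 (receptors for sphingosine 1-phosphate). All 9 passed the filter on low values in both fits.

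The libraries formed 6 groups of 3, and all mice carried the lpr mutation of Fas on the MRL background. Tlr9het B cells were Tlr9+/- Tlr7-/-, and Tlr997 B cells were Tlr7-/- with a chimeric TLR9 whose cytoplasmic TIR domain was that of TLR7. These came from female mice and were cultured for 4 h, untreated or given CpG DNA, an agonist of TLR9, at 10 µg/ml. Tlr779 B cells were Tlr9-/- with a chimeric TLR7 whose TIR domain was that of TLR9. They came from male mice and were cultured for 4 h, untreated or given CL097, an agonist of TLR7, at 5 µg/ml. Mice were 5 to 7 weeks old, given as 5 weeks for the CpG experiment in the study's methods, with 3 mice per genotype. The B cells were bead-purified. One label field names the control of the CpG experiment Tlr9-/- Tlr7-/-, whereas each library's own label names it Tlr9+/- Tlr7-/-, and the latter was followed. Genotype, sex, agonist, TLR and possibly age cannot be told apart between the CpG and the CL097 experiments, so these were not tested against each other. Libraries of Tlr7 wild-type B cells were not analysed here.

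As background, CCR7 draws B cells towards CCL19 and CCL21 at the border with the T cell zone, and CXCR5 draws them towards CXCL13 in the follicle. GPR183 guides them along oxysterol gradients to the outer follicle and the bridging channels, S1PR1 lets them leave the organ towards blood or lymph, and CXCR4 holds cells where CXCL12 is made. CD69, an early activation antigen, binds S1PR1 and removes it from the cell surface, and the transcription factors KLF2 and FOXO1 drive S1pr1 transcription in lymphocytes.

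In GENCODE vM21 (GRCm38, the mm10 build that the submitters' processing notes name) Ccr7 lies at chr11:99144196-99155077, Cxcr5 at chr9:44511787-44561877, Cxcr4 at chr1:128588199-128592293, Ackr3 at chr1:90203980-90216751 and Cxcr3 at chrX:101731535-101734269. Ccr6 lies at chr17:8236043-8257141, Gpr183 at chr14:121952551-121965195, S1pr1 at chr3:115710433-115715072 and S1pr4 at chr10:81497747-81500132. Ackr3 and Ccr6 are on the plus strand and the other 7 on the minus strand. Only Cxcr5 shared annotated exon bases with another gene, 110 bases with Bcl9l on the opposite strand, and whether counting used strand is not given in the sources used here.

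RefSeq promoter windows (GRCm38.p6) were found for 6 of the 9 receptors, and those of Ccr7, Cxcr5 and S1pr1 were not used here. Shown 5′ to 3′ are the bases just before the start of Cxcr4, S1pr4 and Ccr6, which fell together, and of Gpr183, which rose. Capitals mark matches, on either strand, to 4 motifs: GGGNNNNNCC (NF-κB type), CACCC (KLF type), TTCNNNGAA (STAT type) and GTAAACA (FOXO type).
Cxcr4, chr1:128592300-128592549, minus strand: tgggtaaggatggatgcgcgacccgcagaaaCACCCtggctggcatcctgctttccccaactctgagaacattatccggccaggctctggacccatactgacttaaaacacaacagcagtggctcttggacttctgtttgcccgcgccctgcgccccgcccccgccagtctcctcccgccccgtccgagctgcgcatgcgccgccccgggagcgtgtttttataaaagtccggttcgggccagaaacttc
S1pr4, chr10:81500138-81500387, minus strand: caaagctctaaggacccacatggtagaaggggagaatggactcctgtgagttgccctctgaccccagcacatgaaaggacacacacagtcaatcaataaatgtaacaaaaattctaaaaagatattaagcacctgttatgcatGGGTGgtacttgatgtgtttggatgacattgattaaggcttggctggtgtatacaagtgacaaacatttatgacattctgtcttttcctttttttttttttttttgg
Ccr6, upstream start, chr17:8235793-8236042, plus strand: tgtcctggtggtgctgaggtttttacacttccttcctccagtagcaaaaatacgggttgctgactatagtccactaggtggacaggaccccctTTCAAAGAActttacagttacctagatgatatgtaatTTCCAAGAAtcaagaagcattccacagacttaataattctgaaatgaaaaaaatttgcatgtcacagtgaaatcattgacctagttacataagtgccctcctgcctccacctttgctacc
Ccr6, downstream start, chr17:8242276-8242525, plus strand: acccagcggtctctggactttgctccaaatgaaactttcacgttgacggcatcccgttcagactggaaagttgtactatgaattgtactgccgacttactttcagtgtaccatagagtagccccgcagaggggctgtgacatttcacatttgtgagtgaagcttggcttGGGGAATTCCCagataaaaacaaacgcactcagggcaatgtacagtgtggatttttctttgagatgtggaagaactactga
Gpr183, chr14:121965196-121965443, minus strand: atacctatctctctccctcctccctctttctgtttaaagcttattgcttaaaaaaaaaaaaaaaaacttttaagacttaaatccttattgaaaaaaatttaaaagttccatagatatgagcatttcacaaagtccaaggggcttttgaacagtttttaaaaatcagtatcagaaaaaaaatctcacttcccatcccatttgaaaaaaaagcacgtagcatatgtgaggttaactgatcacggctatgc
Cxcr4 and S1pr4 each held 1 CACCC, a motif found in 52.0% of the 32851 windows of this length. The upstream Ccr6 start held 2 TTCNNNGAA matches, against 7.0% of windows with any, and its downstream start held 2 overlapping GGGNNNNNCC matches, against 45.8% of windows with any. The Gpr183 window held none of the 4 motifs, of which GTAAACA was found in 3.2% of windows. Not shown are the windows of Cxcr3, which fell, and of Ackr3 (Cxcr7), which fell in Tlr9het and Tlr779. That of Cxcr3 held 1 GGGNNNNNCC match and that of Ackr3 none of the 4 motifs. These are letter matches only, and binding was not measured.

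The values are the authors' normalised log2 CPM (reads of a gene scaled to a fixed library total, on the log2 scale), so the sequencing depth of each library is unknown. Summed over genes the libraries lay between 991992 and 1004412 CPM. B cell markers were high without agonist, with a summed level of 6 markers of 5523 to 7338 CPM over the 9 unstimulated libraries, against 11.8 to 27.1 CPM for 8 T cell markers, 4.32 to 7.88 CPM for 5 NK cell markers and 131 to 437 CPM for 6 macrophage markers. No marker of these 4 lists was under -4 log2 CPM in every library, so none was absent throughout. In the same unstimulated libraries 4 plasma cell markers summed to 427 to 1036 CPM and 4 neutrophil markers to 27.1 to 120 CPM. The sum of 4 erythroid markers lay between 13.0 and 474 CPM, and was 474, 20.4 and 46.9 CPM in the Tlr997 replicates. In the 12 Tlr7-/- libraries, Tlr7 lay between 2.68 and 4.28 log2 CPM in Tlr9het and between 4.81 and 5.36 in Tlr997. In the 6 Tlr779 libraries it lay between 6.61 and 7.82. Tlr9 lay between 6.93 and 7.47 in the Tlr9-/- Tlr779 libraries, so gene-level values did not show every targeted allele as lost. By the study's methods, the Tlr997 allele holds the TLR7 TIR coding sequence and the Tlr779 allele that of TLR9. The part of such reads in these values was not tested. With agonist the 6 B cell markers summed to 1653 to 3160 CPM. By the calls defined below, 5 of 6 fell and Pax5 rose in Tlr9het, against 28.2% and 29.7% of all genes tested. In Tlr997 3 of 6 fell, against 26.0%, in Tlr779 4 of 6, against 23.6%, and 0 were called higher in either. Ms4a1 had a mean of 10.16 log2 CPM without and 10.57 with CpG in Tlr997, and Pax5 6.79 and 7.26.

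Without agonist the order of the receptors per kilobase of exon was almost the same in the 3 genotypes. In Tlr9het B cells Cxcr4 stood highest at 9.32 ± 0.10 log2 CPM per kilobase (SD, n = 3), followed by Ccr7 at 8.53 ± 0.10, Cxcr5 at 7.81 ± 0.07, S1pr1 at 7.42 ± 0.08 and Ccr6 at 7.01 ± 0.004. Gpr183 at 5.35 ± 0.03 and S1pr4 at 5.21 ± 0.20 overlapped, as did Cxcr3 at 1.22 ± 0.36 and Cxcr7 at 0.65 ± 0.33. In Tlr997 B cells the same pairs overlapped. In Tlr779 B cells the ranges of Cxcr4 and Ccr7, of S1pr1 and Ccr6, and of Cxcr3 and Cxcr7 overlapped. With agonist Ccr7 stood highest and Cxcr5 next in all 3 genotypes, and Cxcr4 dropped to place 4 in Tlr9het (5.99 ± 0.19), place 4 in Tlr997 (5.66 ± 0.28), where its range overlapped that of Gpr183, and place 3 in Tlr779 (7.73 ± 0.25). S1pr1 stood above Ccr6 in Tlr9het with CpG (4.75 ± 0.06 and 4.34 ± 0.12) and below it in Tlr997 with CpG (3.45 ± 0.31 and 4.61 ± 0.18), with no overlap of their ranges in either group.

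**Figure D1:**
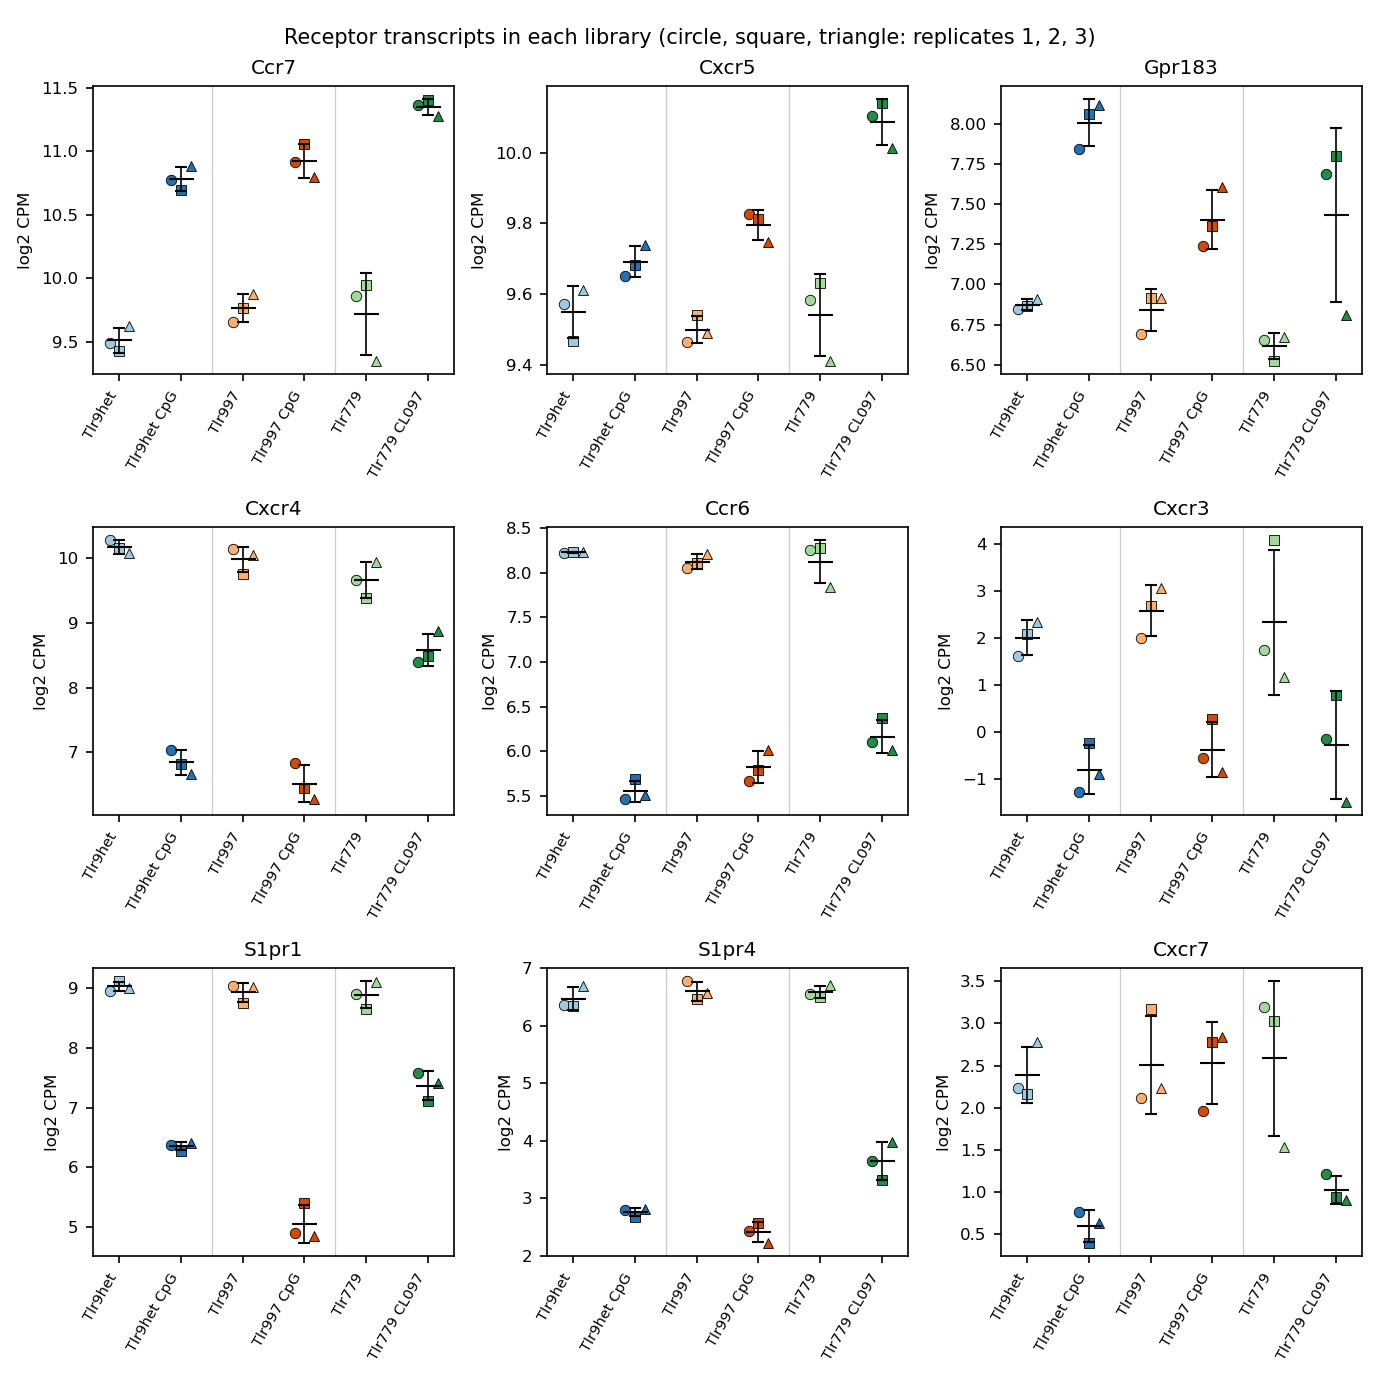
Level of each receptor in the 18 libraries, in log2 CPM (y axis, own scale in each panel), by group (x axis); bars show the mean ± SD of 3 libraries. Cxcr4, Ccr6, Cxcr3, S1pr1 and S1pr4 were lower and Ccr7, Cxcr5 and Gpr183 higher in each agonist-treated group than in its unstimulated group, whereas Cxcr7 stayed at 1.97 to 2.84 in Tlr997 with CpG.

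The response to the agonist was measured within each genotype, with limma over all genes that passed the filter. A gene was called when its Benjamini-Hochberg adjusted p was under 0.05 and its change over 0.5 on the log2 scale. Most of the 9 receptors changed, and more fell than rose. In Tlr9het B cells CpG lowered 6 of 9, against 28.2% of the 11494 genes tested, and raised 2 of 9, against 29.7%. In Tlr997 B cells CpG lowered 5 of 9, against 26.0%, and raised 2 of 9, against 29.6%. In Tlr779 B cells CL097 lowered 6 of 9, against 23.6% of 11082 genes tested, and raised 3 of 9, against 22.7%. The median change of the 9 was -2.67 in Tlr9het, -2.30 in Tlr997 and -1.52 in Tlr779, where the medians of all genes tested were 0.04, 0.07 and -0.02. The authors' quantile normalisation makes the spread of values alike between libraries, so medians of all genes near 0 follow in part from it. The values are shares of a fixed library total. In these bulk samples fewer cells of a type, less of a transcript per cell and more of other RNA cannot be told apart.

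**Figure D2:**
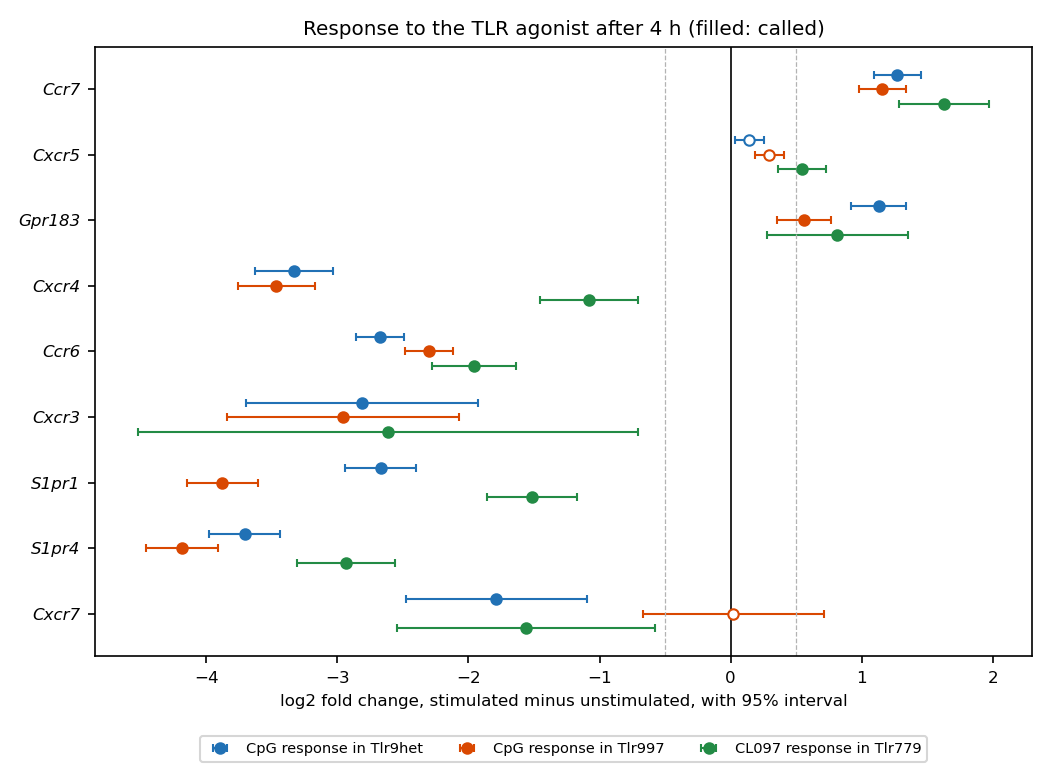
Change of each receptor with agonist (x axis, log2 fold change, stimulated minus unstimulated, with its 95% interval) in Tlr9het, Tlr997 and Tlr779 B cells; filled points were called and dashed lines mark a change of 0.5. Ccr7 and Gpr183 lie right of 0 in all 3 genotypes and S1pr4 lies farthest left in each.

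Ccr7, the receptor for CCL19 and CCL21, rose in all 3 genotypes. In Tlr9het its levels were 9.49, 9.43 and 9.62 log2 CPM without and 10.77, 10.70 and 10.88 with CpG, in Tlr997 they were 9.66, 9.77 and 9.88 without and 10.92, 11.06 and 10.79 with CpG. In Tlr779 they were 9.86, 9.95 and 9.35 without and 11.36, 11.40 and 11.28 with CL097. No treated library overlapped its untreated group. The fold changes were 2.41 (log2 1.27, SE 0.08), 2.23 (log2 1.16, SE 0.08) and 3.09 (log2 1.63, SE 0.15), with adjusted p = 8.6e-09, 2.7e-08 and 4.5e-05 (limma). T cells also express Ccr7. The sum of 8 T cell markers was 11.8 to 27.1 CPM in the untreated and 30.9 to 55.0 CPM in the treated libraries, while the mean level of Ccr7 there was 1764 to 2608 CPM per group. Il7r was the highest of the 8 by mean level in each group. In Tlr779 it rose by 1.26 with CL097 and the other 7 could not be tested. Among these, Cd8a was at a mean of -0.75 log2 CPM without and 1.23 with CL097, whereas Cd3e was at -0.46 and -2.74 and Lat at -0.48 and -1.73. The part of those cells in the Ccr7 result was not tested.

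Cxcr5, the follicular receptor for CXCL13, changed little. It lay between 9.41 and 9.63 log2 CPM in the 9 unstimulated libraries, between 9.65 and 9.83 with CpG and between 10.01 and 10.14 with CL097. The change was 0.14 (SE 0.05, adjusted p = 0.024, limma) in Tlr9het and 0.30 (SE 0.05, adjusted p = 0.00017) in Tlr997, both under the 0.5 threshold. With CL097 it was 0.54 (SE 0.08, adjusted p = 0.00054) in Tlr779 and was called, but it was 0.48 without the unstimulated Tlr779 library of replicate 3, whose level of 9.41 was the lowest of its group.

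Gpr183, the oxysterol receptor, rose in all 3 genotypes. In Tlr9het its levels were 6.85, 6.87 and 6.91 log2 CPM without and 7.84, 8.06 and 8.12 with CpG, and in Tlr997 they were 6.69, 6.92 and 6.92 without and 7.24, 7.36 and 7.60 with CpG. All Tlr997 libraries with CpG lay below all Tlr9het libraries with CpG. In Tlr779 they were 6.65, 6.53 and 6.67 without and 7.69, 7.80 and 6.81 with CL097, so the treated library of replicate 3 was close to the untreated ones. The changes were 1.13 (SE 0.10, adjusted p = 1.6e-07, limma), 0.56 (SE 0.10, adjusted p = 0.00016) and 0.81 (SE 0.23, adjusted p = 0.016). The call in Tlr997 was lost without the CpG library of replicate 3 (0.46) or the unstimulated library of replicate 1 (0.49), where the change fell under 0.5. The call in Tlr779 was lost without the CL097 library of replicate 1 (0.69, adjusted p = 0.055) and with no filter on low values (adjusted p = 0.14).

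Cxcr4, the receptor for CXCL12, fell from the highest level per kilobase. In Tlr9het it was at 10.28, 10.16 and 10.08 log2 CPM without and 7.04, 6.82 and 6.67 with CpG. In Tlr997 it was at 10.14, 9.76 and 10.05 without and 6.83, 6.45 and 6.28 with CpG. In Tlr779 it was at 9.66, 9.40 and 9.95 without and 8.40, 8.49 and 8.87 with CL097. The treated and untreated groups were apart in each genotype. Its mean level was 10.0 times lower in Tlr9het (log2 -3.33, SE 0.14, adjusted p = 1.1e-10, limma), 11.0 times lower in Tlr997 (log2 -3.47, SE 0.14, adjusted p = 1.1e-10) and 2.11 times lower in Tlr779 (log2 -1.08, SE 0.16, adjusted p = 0.00065).

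S1pr4, another receptor for sphingosine 1-phosphate, had the largest fall of the 9 in each genotype. It lay between 6.34 and 6.77 log2 CPM in the 9 unstimulated libraries, between 2.67 and 2.81 in Tlr9het with CpG, between 2.22 and 2.57 in Tlr997 with CpG and between 3.32 and 3.98 in Tlr779 with CL097. The level was 13.1 times lower in Tlr9het (log2 -3.71, SE 0.13), 18.2 times lower in Tlr997 (log2 -4.19, SE 0.13) and 7.65 times lower in Tlr779 (log2 -2.94, SE 0.16), with adjusted p = 2.2e-11, 1.4e-11 and 5.9e-06 (limma).

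Ccr6, the receptor for CCL20, also fell in all 3 genotypes. The unstimulated libraries lay between 7.85 and 8.27 log2 CPM, the CpG libraries between 5.47 and 6.01 and the CL097 libraries between 6.01 and 6.37. The change was -2.67 (SE 0.09, adjusted p = 1.4e-11, limma) in Tlr9het, -2.30 (SE 0.09, adjusted p = 6.4e-11) in Tlr997 and -1.96 (SE 0.14, adjusted p = 1.4e-05) in Tlr779.

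Cxcr3, the receptor for the interferon-induced chemokines CXCL9, CXCL10 and CXCL11, was low and fell further. In Tlr9het it was at 1.61, 2.08 and 2.33 log2 CPM without and -1.28, -0.24 and -0.91 with CpG. In Tlr997 it was at 2.00, 2.68 and 3.06 without and -0.56, 0.28 and -0.85 with CpG. In Tlr779 it was at 1.75, 4.08 and 1.17 without and -0.15, 0.79 and -1.49 with CL097, and the second replicate was the highest of its group in both. The change was -2.81 (SE 0.41, adjusted p = 3.1e-05, limma) in Tlr9het, -2.96 (SE 0.41, adjusted p = 2.1e-05) in Tlr997 and -2.62 (SE 0.83, adjusted p = 0.024) in Tlr779. The call in Tlr779 was lost without CL097 replicate 1 (adjusted p = 0.052), CL097 replicate 3 (adjusted p = 0.066) or unstimulated replicate 2 (change -1.74, adjusted p = 0.064), and with no filter on low values (adjusted p = 0.17). T and NK cells also express Cxcr3. In the unstimulated Tlr779 library of replicate 2, Cxcr3 was at 4.08. There the sum of 8 T cell markers was the lowest of its group at 17.2 CPM. The sum of 5 NK cell markers was the highest at 5.94 CPM, but little above the other libraries of its group. The NK cell markers went both ways in that library. Ncr1, Gzma and Prf1 were the highest of their group, whereas Klrb1c and Nkg7 were the lowest. With CpG 2 of 8 T cell markers and 2 of 4 tested NK cell markers rose in Tlr9het, where 29.7% of genes tested rose, and 3 of 8 and 2 of 4 rose in Tlr997, where 29.6% did. None of them was called lower, and their part in the Cxcr3 values was not tested.

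S1pr1, the main egress receptor, fell in all 3 genotypes and by different amounts. In Tlr9het it was at 8.954, 9.114 and 9.004 log2 CPM without and 6.38, 6.28 and 6.40 with CpG. In Tlr997 it was at 9.03, 8.75 and 9.02 without and 4.90, 5.41 and 4.85 with CpG. Every Tlr997 library with CpG lay below every Tlr9het library with CpG, while the unstimulated ranges overlapped. In Tlr779 it was at 8.90, 8.65 and 9.11 without and 7.58, 7.11 and 7.42 with CL097. The level was 6.36 times lower with CpG in Tlr9het (log2 -2.67, SE 0.13, adjusted p = 3.8e-10, limma), 14.7 times lower in Tlr997 (log2 -3.88, SE 0.13, adjusted p = 2.3e-11) and 2.86 times lower with CL097 in Tlr779 (log2 -1.52, SE 0.15, adjusted p = 6.3e-05).

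Cxcr7 fell in Tlr9het and Tlr779 but was not called in Tlr997. In Tlr9het it was at 2.23, 2.17 and 2.78 log2 CPM without and 0.77, 0.40 and 0.64 with CpG, a change of -1.79 (SE 0.32, adjusted p = 0.00019, limma). In Tlr997 it was at 2.12, 3.18 and 2.23 without and 1.97, 2.78 and 2.84 with CpG, a change of 0.02 (95% interval -0.67 to 0.71, adjusted p = 0.96). These ranges overlapped. In Tlr779 it was at 3.19, 3.03 and 1.53 without and 1.22, 0.95 and 0.91 with CL097, a change of -1.56 (SE 0.43, adjusted p = 0.013). The Tlr779 call was lost without unstimulated replicate 1 (adjusted p = 0.056) or replicate 2 (adjusted p = 0.051) and with no filter on low values (adjusted p = 0.10).

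The 2 genotypes of the CpG experiment were then compared, which asks whether the TIR domain attached to the DNA-sensing part of TLR9 changes these transcripts. Without agonist 0 of 9 receptors were called by limma, against 0.0174% of genes tested that were called higher in Tlr997 and 0% called lower. At an unadjusted p under 0.05, 1 of 9 passed. It was Ccr7, which was 0.26 higher in Tlr997 (95% interval 0.08 to 0.43, adjusted p = 0.35). With CpG, 1 of 9 was higher in Tlr997, against 1.26% of genes tested, and 2 of 9 were lower, against 1.47%. These were Cxcr7, higher by 1.93 (SE 0.32, adjusted p = 0.0034, limma), S1pr1, lower at -1.30 (SE 0.13, adjusted p = 8.0e-05), and Gpr183, lower at -0.60 (SE 0.10, adjusted p = 0.0028). For each the libraries of the 2 groups did not overlap, and all 3 calls held under each of the 19 alternatives tried. S1pr1 was among the genes that the study itself picked from these libraries, so its difference is not independent evidence.

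The difference between the 2 responses to CpG was called for 1 of 9 receptors in the lower direction, against 0.853% of genes tested, and for 0 of 9 in the higher direction, against 0.687%. S1pr1 fell further in Tlr997 (difference -1.21, 95% interval -1.59 to -0.82, adjusted p = 0.0041, limma), a call lost with no filter on low values (adjusted p = 0.056). The difference was 1.81 for Cxcr7 (95% interval 0.83 to 2.79, adjusted p = 0.060) and -0.57 for Gpr183 (95% interval -0.87 to -0.28, adjusted p = 0.051), neither of which was called. With the replicate number as a block both were called by limma (adjusted p = 0.016 for Cxcr7 and 0.0059 for Gpr183), and same-numbered libraries deviated together in Tlr9het but not in every pair of Tlr997. For the other receptors it was -0.48 for S1pr4 (95% interval -0.86 to -0.09), 0.37 for Ccr6 (0.11 to 0.63), 0.15 for Cxcr5 (-0.003 to 0.31), -0.11 for Ccr7 (-0.36 to 0.14), -0.14 for Cxcr4 (-0.56 to 0.28) and -0.14 for Cxcr3 (-1.40 to 1.11). The interval of Cxcr3 was too wide to show a difference of the size seen for S1pr1.

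**Figure D3:**
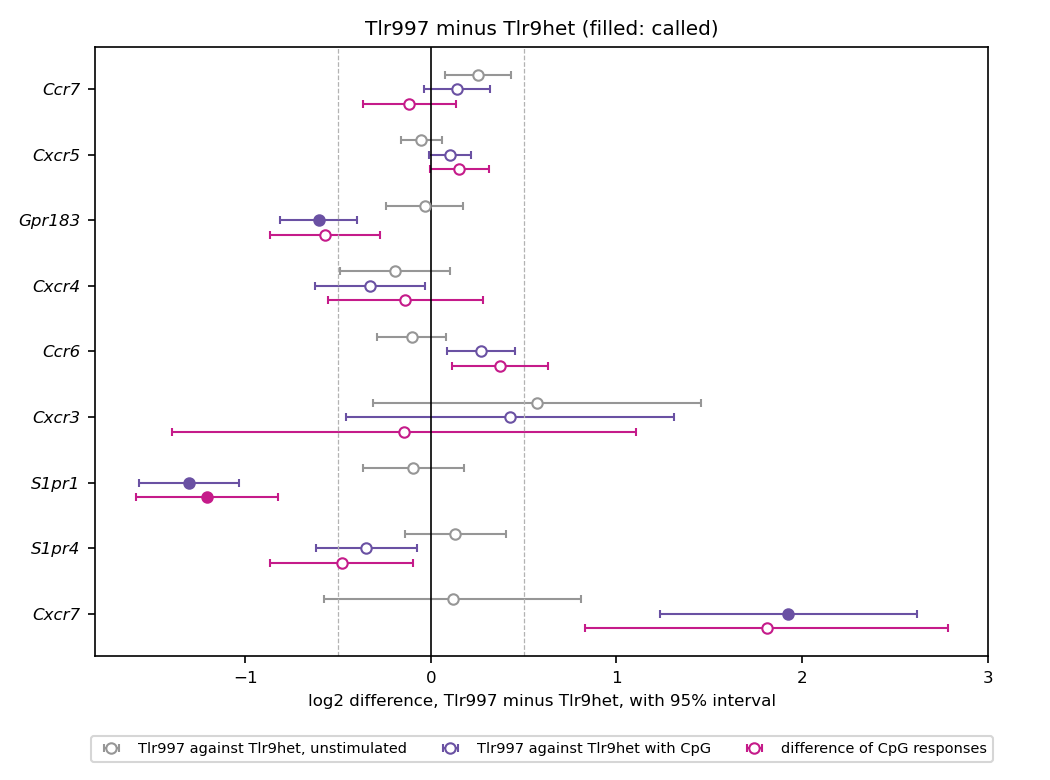
Tlr997 minus Tlr9het for each receptor (x axis, log2 difference with its 95% interval) without agonist, with CpG, and as the difference of the CpG responses; filled points were called. Only Cxcr7, Gpr183 and S1pr1 were called with CpG, and S1pr1 alone for the difference of responses in this fit, which has no replicate block.

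Markers of marginal zone B cells, a splenic subset that carries Cxcr7, were measured in the same libraries. The sum of 4 markers (Cr2, Cd1d1, S1pr3 and Dtx1) was 405 to 466 CPM in Tlr9het, 342 to 509 in Tlr997 and 317 to 478 in Tlr779 without agonist. It was 96.9 to 111 in Tlr9het and 147 to 179 in Tlr997 with CpG, without overlap, and 133 to 144 in Tlr779 with CL097. All 4 markers fell with agonist in each genotype, against 28.2%, 26.0% and 23.6% of all genes tested in Tlr9het, Tlr997 and Tlr779. This included Tlr997, where Cxcr7 changed by 0.02 and was not called. With CpG 3 of 4 were higher in Tlr997 than in Tlr9het, against 1.26% of all genes tested. They were Cr2 by 0.81, Dtx1 by 0.56 and S1pr3 by 0.55, whose call was lost under 12 alternatives. Cd1d1 was at 0.29 and not called. The CpG libraries of the 2 genotypes overlapped for Cd1d1, which was at 0.87, 1.10 and 0.89 log2 CPM in Tlr9het and 1.27, 1.75 and 0.70 in Tlr997. The part of marginal zone cells in the Cxcr7 result was not tested. Of the 6 B cell markers, 3 were also higher in Tlr997 with CpG and none was lower, against 1.26% and 1.47% of all genes tested. Their summed levels with CpG were 2598 to 3160 CPM in Tlr997 against 1653 to 1721 CPM in Tlr9het.

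The 3 regulators of S1pr1 named above were measured in the same libraries. Klf2 fell in all 3 genotypes, by 2.26 (SE 0.11) in Tlr9het, by 2.65 (SE 0.11) in Tlr997 and by 1.25 (SE 0.14) in Tlr779. Cd69 rose in all 3, by 2.04 (SE 0.07), 2.22 (SE 0.07) and 2.52 (SE 0.24). Foxo1 was at 8.21, 8.27 and 8.22 log2 CPM without and 8.20, 8.16 and 8.21 with CpG in Tlr9het, and at 8.40, 8.11 and 8.23 without and 7.68, 7.55 and 7.67 with CpG in Tlr997. With CpG it differed between the genotypes by -0.56 (SE 0.07, adjusted p = 0.00044, limma), and its response differed by -0.57 (SE 0.10, adjusted p = 0.0088). Its response in Tlr779 was -0.65 (SE 0.08, adjusted p = 0.00017). That difference of responses was not called without the unstimulated Tlr997 library of replicate 1 (-0.49) or with no filter on low values.

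**Figure D4:**
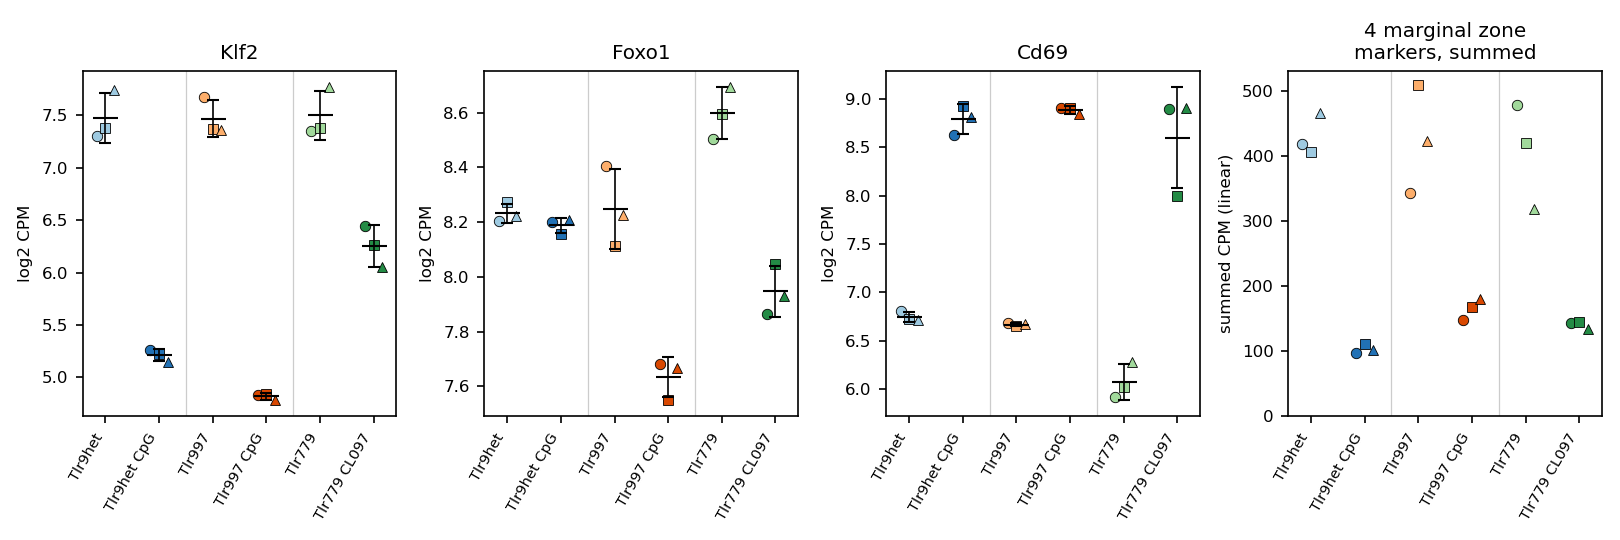
Klf2, Foxo1 and Cd69 in log2 CPM and the summed CPM of 4 marginal zone markers (y axes) in the 18 libraries by group (x axis). Bars show the mean ± SD of 3 libraries for the genes, and the marker panel has none. Foxo1 with CpG sits at 8.16 to 8.21 in Tlr9het and 7.55 to 7.68 in Tlr997.

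Other receptors of the same families moved in both directions. Of 17 other chemokine receptors 9 could be tested with CpG and 8 with CL097, and in each genotype 2 rose and 2 fell. Of all genes tested, 29.7% rose and 28.2% fell in Tlr9het, 29.6% and 26.0% in Tlr997, and 22.7% and 23.6% in Tlr779. Ccrl2, an atypical receptor that binds chemerin, rose by 0.64 in Tlr9het, 0.57 in Tlr997 and 1.55 in Tlr779, and its calls in Tlr9het and Tlr997 were lost under 5 and 7 alternatives. Ccr1 fell by 1.89, 2.32 and 1.74. Of 24 other lipid and positioning receptors 14 could be tested, of which 6 fell and 2 rose in Tlr9het, 7 fell and 2 rose in Tlr997, and 8 fell and 1 rose in Tlr779. Cnr2, the cannabinoid receptor CB2, fell by 4.10 (SE 0.09), 3.88 (SE 0.09) and 1.74 (SE 0.17). P2ry10, a receptor for lysophosphatidylserine, fell by 1.77, 1.51 and 0.60, with the last call lost without CL097 replicate 3 (-0.50) and with no filter on low values, and Gpr174, another such receptor, by 1.26, 0.93 and 1.01. Ptger4, a receptor for prostaglandin E2, rose by 1.74, 1.68 and 1.23. S1pr3 fell by 1.93, 1.44 and 0.93. Gpr18 rose by 0.55 (SE 0.09) in Tlr9het, a call lost without CpG replicate 3 of Tlr9het, and was at -0.19 in Tlr997 and not called. The responses differed by -0.75 (SE 0.12, adjusted p = 0.0071, limma).

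The signal transducers of these receptors mostly fell. Of 28 genes 27 could be tested, and 16 fell in each of the 3 genotypes, with 0 rising in Tlr9het and Tlr779 and 1 in Tlr997. Of all genes tested, 28.2%, 26.0% and 23.6% fell in Tlr9het, Tlr997 and Tlr779, and 29.7%, 29.6% and 22.7% rose. Gng2, a G protein gamma subunit, fell by 2.84 (SE 0.09), 3.02 (SE 0.09) and 1.88 (SE 0.12). Arhgef1, a guanine nucleotide exchange factor downstream of Gα13, fell by 2.51, 2.29 and 1.13, and Pik3cg, the catalytic subunit of PI3Kγ, fell by 2.06, 2.54 and 1.29. Arrb1, a β-arrestin, fell by 2.52, 2.92 and 1.32, and its call in Tlr779 was lost under 4 alternatives. Pik3r5, a regulatory subunit of PI3Kγ, was the one that rose in Tlr997, by 0.70, against -0.12 in Tlr9het, and the responses differed by 0.82 (SE 0.14, adjusted p = 0.012, limma). The median change of the 27 was -0.77, -0.81 and -0.71.

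Of 10 ligands of the receptors 2 could be tested and 4 were under -4 log2 CPM in every library. Cxcl10, a ligand of CXCR3, rose by 2.55 (SE 0.31), 3.31 (SE 0.31) and 3.49 (SE 0.53), while its receptor fell. Of 13 genes that make, move or degrade the lipid ligands 11 could be tested. In each genotype 5 of these fell, and 1, 2 and 2 rose. The shares of all genes tested were 28.2%, 26.0% and 23.6% for falls and 29.7%, 29.6% and 22.7% for rises. Abca1, a cholesterol exporter, fell by 4.32 (SE 0.14), 3.98 (SE 0.14) and 2.21 (SE 0.13). Spns2, an exporter of sphingosine 1-phosphate, fell by 3.46, 4.55 and 3.52. Ppap2b (the older symbol of Plpp3), a lipid phosphate phosphatase, fell by 1.24, 1.14 and 2.12.

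**Figure D5:**
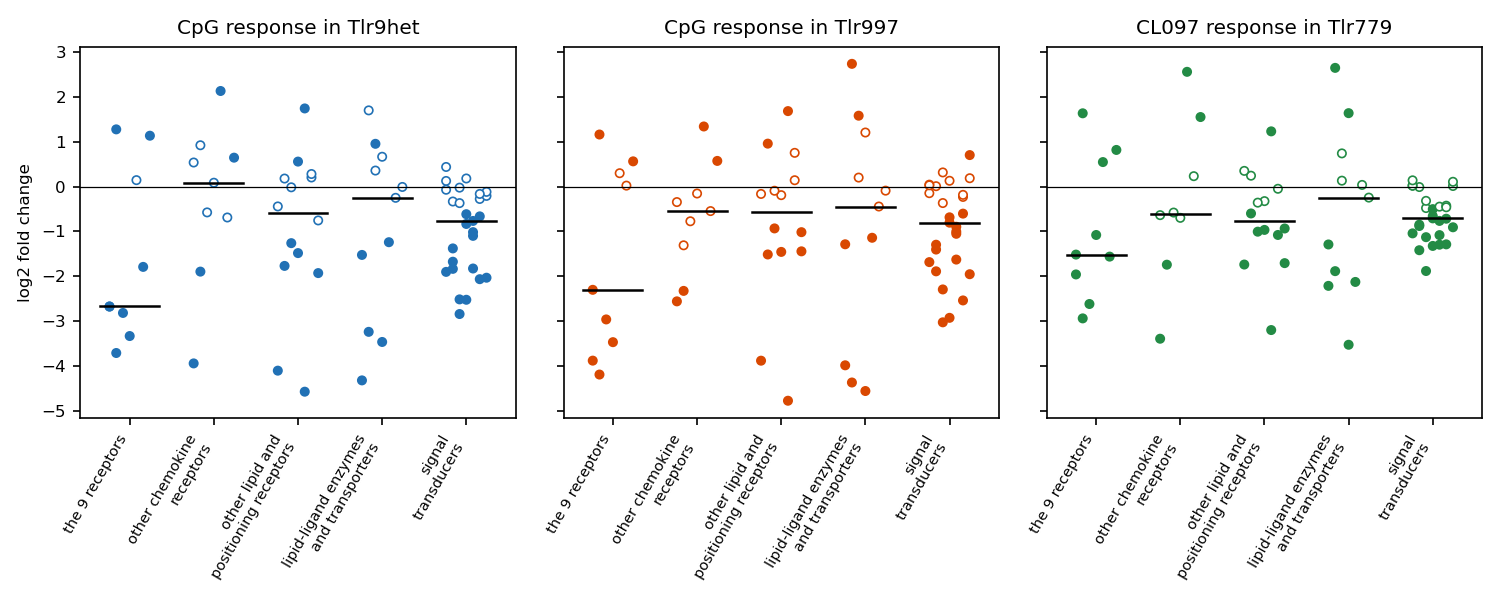
Change with agonist (y axis, log2 fold change) of the 9 receptors and of 4 related gene lists (x axis) in each genotype; points are genes, filled where called, and lines are medians. The medians of the 9 receptors are -2.67, -2.30 and -1.52, and those of the signal transducers are -0.77, -0.81 and -0.71.

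The genes most like each receptor over the 18 libraries were taken from 9365 genes with a mean level over 2 log2 CPM, by Pearson r, as a description of libraries that share animals and agonists. Esyt1 (r = 0.997), Man2b1 (r = 0.997) and Klf13 (r = 0.996) stood nearest to S1pr4, Lrch1, Rasa3 and Plekhm1 (r = 0.99 each) to S1pr1, and Cerk (r = 0.99) to Cxcr4. Tpm4 stood nearest to Ccr6 (r = 0.99), Suz12 to Ccr7 (r = 0.98), Pds5a to Cxcr5 (r = 0.96), Plbd1 to Cxcr3 (r = 0.94), Nmrk1 to Gpr183 (r = 0.94) and Ankrd37 to Cxcr7 (r = 0.88).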

How the data were processed

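RNA-seq libraries of bead-purified splenic B cells were aligned by the authors to mm10 with STAR (2.6.1a), and reads per gene were counted with featureCounts (Subread 2.0.1), after FastQC 0.11.7 and Trim Galore 0.6.5 (submitters' processing notes and the study's methods). The deposited values are log2 CPM per gene, which the authors quantile-normalised with voom, so depth is unknown and the number of libraries limits precision. Of 6614 genes under -4 log2 CPM in all 12 Tlr7-/- libraries, 6306 had a single value per replicate number and 822 of these differed between numbers. For Ltb4r2 the Tlr779 libraries showed the same pattern, at -5.217, -4.969 and -4.969 in replicates 1, 2 and 3 with and without CL097. How this pattern arose is not given in the sources used here. Its bearing on the p-values and on the correlations of same-numbered libraries was not tested.

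Genes over 0 log2 CPM in at least 3 libraries of a fit were tested with limma 3.58.1 (R 4.3.3) with a variance trend, in 1 model for the 12 Tlr7-/- libraries and 1 for the 6 Tlr779 libraries, and p-values were adjusted over all genes tested by the Benjamini-Hochberg method. With 3 mice per genotype, untreated and treated libraries of a genotype share mice, but nothing in the labels ties a library to an animal. The main fits took the libraries as independent, without the replicate block, so their p-values measure the spread between libraries and not between paired samples. Same-numbered libraries deviated together in Tlr9het (r = 0.51, 0.29 and 0.51) and Tlr779 (r = 0.25, 0.49 and 0.33) over genes, which pairs them by number. Exon lengths came from GENCODE vM21. The fit was tested on simulated data. The receptors and gene lists were chosen with earlier results of these data known. Beyond the 9 receptors and the regulators, genes of a list were named from the called genes with the largest change and a mean over 2 log2 CPM, up to 4 per list and comparison. For 1 gene that met this rule, the values are not reported here, and it stays in the counts of its list. Alternatives were the replicate block, leaving out each library, the groups fitted, no filter, log2(CPM + 1), median and upper quartile centring and no variance trend.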

Additional observations from a re-analysis of the deposited data

Results flagged for a closer look

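For S1pr1 the change with CpG was lower in Tlr997 than in Tlr9het by -1.21 on the log2 scale, by limma's test of the difference of the responses. In related genes the same test passed for Foxo1, which was lower by -0.57, and for Gpr18, lower by -0.75, while for Pik3r5 it was higher by 0.82. Each of the 4 kept its direction under every alternative tried, and each missed the threshold with no filter on low values (adjusted p = 0.056 for S1pr1, 0.051 for Foxo1, 0.057 for Gpr18 and 0.062 for Pik3r5, limma). The causes were not tested. Groups of 3 libraries were not tested for single libraries that stand apart.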

How the results depend on the processing

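Of 962 recomputed changes of the 9 receptors, 939 kept their side of the threshold, 13 lost a call and 10 gained one, and no called change turned its direction. The difference of CpG responses was called for 1 receptor, and for 3 with the replicate block (Cxcr7 and Gpr183 added), 0 with no filter on low values, and 2 each with log2(CPM + 1), median centring and upper quartile centring. Leaving out a library gave 1 to 2, with Gpr183 added without Tlr997 replicate 1, Tlr997 CpG replicate 3 or Tlr9het CpG replicate 1, and Cxcr7 without Tlr997 replicate 2 or Tlr997 CpG replicate 1. The cause was not tested. Same-numbered Tlr997 libraries correlated at 0.37, 0.08 and 0.02, so the numbers were not taken to pair them, and the replicate block changed no other receptor's call. Of genes called over the whole table, the difference of responses went from 177 to 328 with the replicate block, 78 with no filter and 98 with no variance trend, and 87 to 295 when a library was left out. With CpG between genotypes 314 genes became 188 with no filter and 187 without Tlr9het CpG replicate 1. Unstimulated, 2 genes became 0 with no filter or only the groups compared, and 4 without Tlr997 replicate 2 or 3. With only the groups compared, Cxcr3 could not be tested between the genotypes with CpG, since it did not pass the filter.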
